A study of Drosophila melanogaster with 2 samples.

Results

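CG32121 encodes a zinc-finger protein of the BTB family. Its fusion to enhanced green fluorescent protein was mapped by chromatin immunoprecipitation with sequencing (ChIP-seq), using an antibody against the fluorescent protein, in whole pupae aged 2 days. There was 1 group of 2 biological replicates. Every animal carried the CG32121-eGFP transgene (the labels name no driving promoter), and all tissues of the pupa were mixed. No untagged or input library was analysed here, and a gene bound in a few cell types cannot be told apart from one bound weakly in many. The subject here is the peaks at divergent promoters, where 2 protein-coding genes start back to back. They were chosen by position alone. A peak of the authors' conservative list was taken when its summit lay at most 500 bp from where a protein-coding transcript starts (Ensembl release 115), and when another gene on the opposite strand started within 500 bp upstream of the nearest such site. This held for 626 of the 7676 peaks (8.16%, Wilson 95% interval 7.56 to 8.79), and for 21.6% of the 2896 peaks with a summit within 500 bp of any protein-coding start. They are compared with the other 2270 promoter peaks, called lone here because no such partner started within 500 bp. The other 4780 peaks had no protein-coding start within reach of the summit.

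Divergent, or head-to-head, promoters are common in the compact fly genome. The short stretch between the starts holds the promoters of both genes and is usually free of stable nucleosomes. Many such genes serve functions that every cell needs, and their core promoters often carry the DNA replication-related element (DRE), recognised by the factor Dref, or the motif known as motif 1, recognised by M1BP. The insulator protein BEAF-32 binds CGATA, which the DRE contains. GAGA repeats, bound by GAGA factor, are better known from promoters of developmentally regulated genes.

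The stretches between the starts are shown for the 6 strongest peaks whose starts lie at least 60 and at most 300 bp apart with no annotated exon in between, leaving out 1 chromosome arm that is not shown. Sequences are the forward strand of the dm6 assembly, read from the RefSeq genome, and capitals mark runs of at least 8 A or T bases. The lower limit left out tightly spaced pairs such as mRpL23 with CG9004. The summit of 5 of them lay inside the printed stretch.
Tcs5 and CHMP2B, chr3L:5139396-5139618, summit at base 108: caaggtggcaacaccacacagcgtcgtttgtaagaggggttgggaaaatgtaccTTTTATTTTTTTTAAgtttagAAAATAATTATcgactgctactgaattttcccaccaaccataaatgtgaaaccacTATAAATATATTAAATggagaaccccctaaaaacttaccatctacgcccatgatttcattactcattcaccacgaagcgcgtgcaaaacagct
CG7601 and CIA30, chr3R:29736746-29736964, summit at base 97: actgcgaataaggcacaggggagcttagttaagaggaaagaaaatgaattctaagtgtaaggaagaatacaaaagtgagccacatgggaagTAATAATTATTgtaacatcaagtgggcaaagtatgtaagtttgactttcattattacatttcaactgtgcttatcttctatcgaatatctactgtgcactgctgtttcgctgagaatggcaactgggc
Chro and Ssl1, chr3L:22878985-22879088, summit outside, 95 bp downstream of the Chro start: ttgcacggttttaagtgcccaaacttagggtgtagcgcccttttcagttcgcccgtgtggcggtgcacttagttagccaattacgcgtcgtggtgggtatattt
Art3 and mRpS10, chr3R:15229409-15229664, summit at base 147: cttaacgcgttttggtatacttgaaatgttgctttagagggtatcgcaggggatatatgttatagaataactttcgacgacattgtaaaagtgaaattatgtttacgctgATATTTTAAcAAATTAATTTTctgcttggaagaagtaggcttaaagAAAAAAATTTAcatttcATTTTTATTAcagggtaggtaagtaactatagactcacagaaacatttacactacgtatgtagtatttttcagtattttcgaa
CG13390 and CG17294, chr2L:8376798-8377034, summit at base 87: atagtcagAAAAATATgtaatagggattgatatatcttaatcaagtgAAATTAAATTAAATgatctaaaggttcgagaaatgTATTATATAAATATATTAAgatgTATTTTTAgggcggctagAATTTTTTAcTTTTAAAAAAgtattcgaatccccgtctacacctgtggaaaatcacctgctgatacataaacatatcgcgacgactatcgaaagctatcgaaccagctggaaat
CG3437 and CG3552, chr3L:9457670-9457911, summit at base 116: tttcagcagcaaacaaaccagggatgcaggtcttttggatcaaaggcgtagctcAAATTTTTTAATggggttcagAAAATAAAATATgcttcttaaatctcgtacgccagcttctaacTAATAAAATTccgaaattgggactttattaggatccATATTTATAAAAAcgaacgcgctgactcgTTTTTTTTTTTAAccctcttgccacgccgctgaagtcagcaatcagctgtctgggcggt
In the Tcs5, CHMP2B stretch the longest run of A and T was 16 bases, and in the CG13390, CG17294 stretch it was 19 bases. The Chro, Ssl1 stretch held no such run, and it was also the stretch whose summit lay outside it. None of the 6 stretches held a DRE (TATCGATA) or the motif 1 core (GGTCACAC) on either strand.

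For contrast, the 4 stretches below belong to the 2 strongest such peaks with a DRE and the 2 strongest with the motif 1 core between the starts. Here capitals mark the DRE, the motif 1 core, the motif 7 core (CATCNCTA) and ACAGTG on either strand, and they show where these motifs lie relative to the summit.
fws and Lamtor3, chr2L:17481030-17481230, summit at base 97: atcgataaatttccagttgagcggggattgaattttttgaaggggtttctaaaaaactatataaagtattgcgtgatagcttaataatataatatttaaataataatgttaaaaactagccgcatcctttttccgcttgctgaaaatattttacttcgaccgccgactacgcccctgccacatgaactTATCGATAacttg
Atat and Shc, chr3L:9426759-9427009, summit at base 113: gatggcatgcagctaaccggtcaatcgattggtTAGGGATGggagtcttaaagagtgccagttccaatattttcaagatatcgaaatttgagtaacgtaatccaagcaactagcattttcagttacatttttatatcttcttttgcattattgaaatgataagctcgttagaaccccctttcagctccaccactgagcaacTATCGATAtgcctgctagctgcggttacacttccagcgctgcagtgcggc
Tsf2 and CG34242, chr3L:12533725-12533995, summit inside: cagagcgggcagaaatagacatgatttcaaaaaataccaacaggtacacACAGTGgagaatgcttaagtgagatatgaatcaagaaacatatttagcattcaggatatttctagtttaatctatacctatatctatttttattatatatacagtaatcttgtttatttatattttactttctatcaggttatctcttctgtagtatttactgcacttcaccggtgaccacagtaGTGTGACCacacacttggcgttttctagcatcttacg
GatA and P5cr, chr3R:19028858-19028930, summit outside, at base 92 counted from the first base printed: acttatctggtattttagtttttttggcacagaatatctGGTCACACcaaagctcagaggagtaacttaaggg
In each of these 4 stretches the DRE or the motif 1 core stood apart from the summit. The fws, Lamtor3 stretch held a run of 27 A and T bases.

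CG32121 peaks were denser at head-to-head promoters than at lone ones. The bases within 500 bp of a start and nearest to a head-to-head start added up to 2.28 Mb, and they held 274.5 summits per Mb (95% Poisson interval 253 to 297). Around lone starts there were 173.9 summits per Mb (167 to 181), a ratio of 1.58 (1.44 to 1.73). These intervals, like all intervals on counts and shares below, cover counting error only, because peaks and genes are not replicates and the number of reads is unknown. Bases upstream of the nearest start made up 21.5% of the head-to-head windows and 49.2% of the lone ones, and the density was not matched for this.

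Counted by gene, 21.5% of the 13945 protein-coding genes had a summit within 500 bp of a start. The share was 34.2% of the 3815 genes with a head-to-head partner (1304 genes) and 16.7% of the 10130 genes without one (1689 genes). The difference was 17.5 percentage points (Newcombe 95% interval 15.8 to 19.2). A summit between the starts can count for both genes of a pair, which is why the density per base was given first. In replicate 1's own peak list the shares were 21.7% and 9.83%, and in replicate 2's own list 33.3% and 15.7%, so both replicates had the same order.

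The difference was of similar size for genes with few annotated starts and was smaller or not detectable for genes with more. Among genes with 1 start, 28.4% of the head-to-head genes and 10.7% of the lone genes had a summit, a difference of 17.7 points (15.9 to 19.6). With 2 starts the shares were 42.9% and 25.8%. With 3 starts they were 51.4% and 44.4%, and the interval of the difference, -1.0 to 14.8 points, included 0. In replicate 2's own list it was 9.50 points (1.54 to 17.4), which did not, and in replicate 1's 4.10 points (-3.25 to 11.7). Genes with 5 or more starts had a summit in 67.8% (40 of 59) and 76.3% (100 of 131), with an interval of -22.8 to 4.65 points.

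The annotation held 1972 head-to-head gene pairs, of which 576 (29.2%) had a member peak. Of these, 527 pairs had 1 peak, 48 had 2 and 1 had 3. A further 1331 pairs had no summit within 500 bp of either of their closest starts. Other annotated starts of these genes were not searched for this count. The share of pairs with a member peak varied with the distance between their closest starts. It was 24.1% (20.3 to 28.4) at up to 100 bp and 21.4% (17.5 to 26.0) at 101 to 200 bp. At 201 to 300 bp it was 36.9% (32.9 to 41.0), and beyond that 32.2% at 301 to 400 bp and 27.7% (22.6 to 33.4) at 401 to 500 bp. The interval at 201 to 300 bp thus lay above both intervals for closer pairs and overlapped the intervals for wider ones. By chromosome arm, the share of pairs with a member peak was 29.1% on 2L, 28.5% on 2R, 35.2% on 3L and 30.7% on 3R. On X it was 20.1% (15.9 to 25.1), and on chromosome 4 none of 7 pairs had one.

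Most summits lay in the stretch between the starts. Of the 626 summits, 426 (68.1%, 64.3 to 71.6) were between the nearest start and its partner, although that stretch made up 21.5% of the bases in which a summit could fall. The other 200 lay downstream of the nearest start. Around lone starts 1561 of 2270 summits (68.8%) were upstream, where 49.2% of the available bases lay. The shares upstream in the 2 classes differed by -0.72 points (-4.91 to 3.31), which is within counting error. Within reach of both starts of their pair were 566 member summits (90.4%).

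The side of the summit depended on how far apart the starts were. The spacing meant here is that between the start nearest to the summit and its nearest partner, which can be wider than the closest starts of the pair. At up to 100 bp only 26.0% (17.5 to 36.7) of 77 summits lay between the starts, and the 57 downstream summits had a median distance of 74 bp from the nearest start. At 101 to 200 bp the share was 51.3% (40.4 to 62.1) of 78 summits. It reached 81.5% (75.9 to 86.1) of 222 summits at 201 to 300 bp and was 77.3% (70.0 to 83.3) and 69.7% (60 to 77.9) in the wider classes. The bases between the starts made up 7.04%, 15.4%, 21.8%, 26.8% and 31.3% of the windows in the same order, so the summit share stood above the base share in every class.

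**Figure D1:**
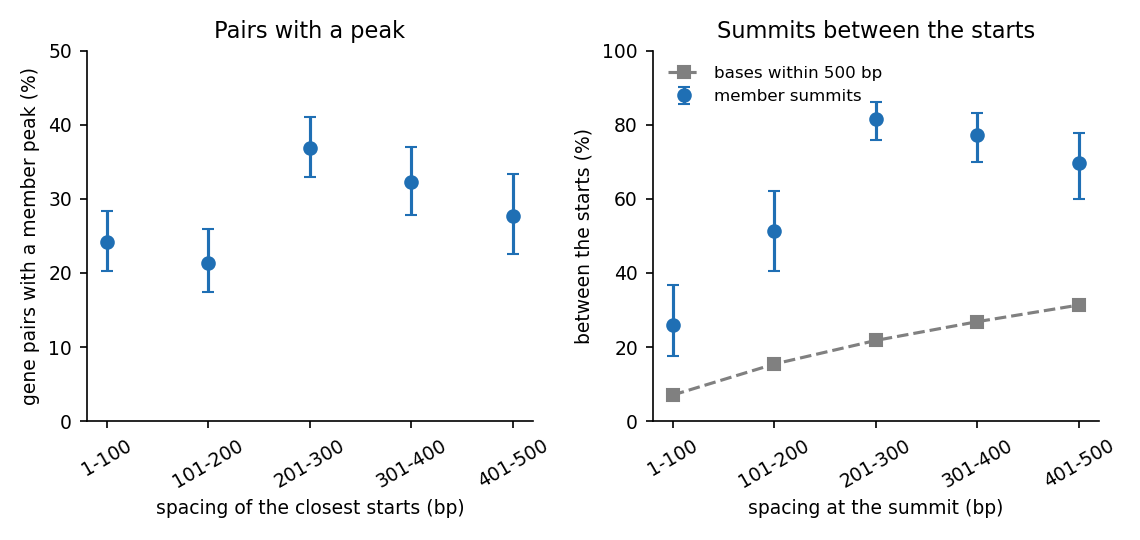
Left, percent of head-to-head gene pairs with a member peak against the distance between their closest starts in bp; right, percent of member summits between the starts (points) and percent of available bases there (squares) against the spacing at the summit in bp, bars being Wilson 95% intervals. Pairs 201 to 300 bp apart have the highest point in both panels, 36.9% and 81.5%.

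Summits did not simply follow the midpoint. The median distance to the nearest start was 53 bp and 48 bp in the tightest spacing classes, 98 bp at 201 to 300 bp, and 126.5 bp and 126 bp in the 2 widest. A summit between the starts cannot lie beyond the midpoint from its nearest start, so the rule sets part of this order. Of the 426 summits between starts, 192 (45.1%) lay 80 to 130 bp from the nearest start. At a spacing of 201 to 300 bp this distance falls near the middle, and 84 of 222 summits (37.8%) lay within 25 bp of the midpoint. At 401 to 500 bp, 5 of 99 did (5.05%). The median upstream distance was 98.5 bp (93.0 to 104) for the member summits and 161 bp (155 to 167) for lone ones, whose distance was not bounded by a partner.

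**Figure D2:**
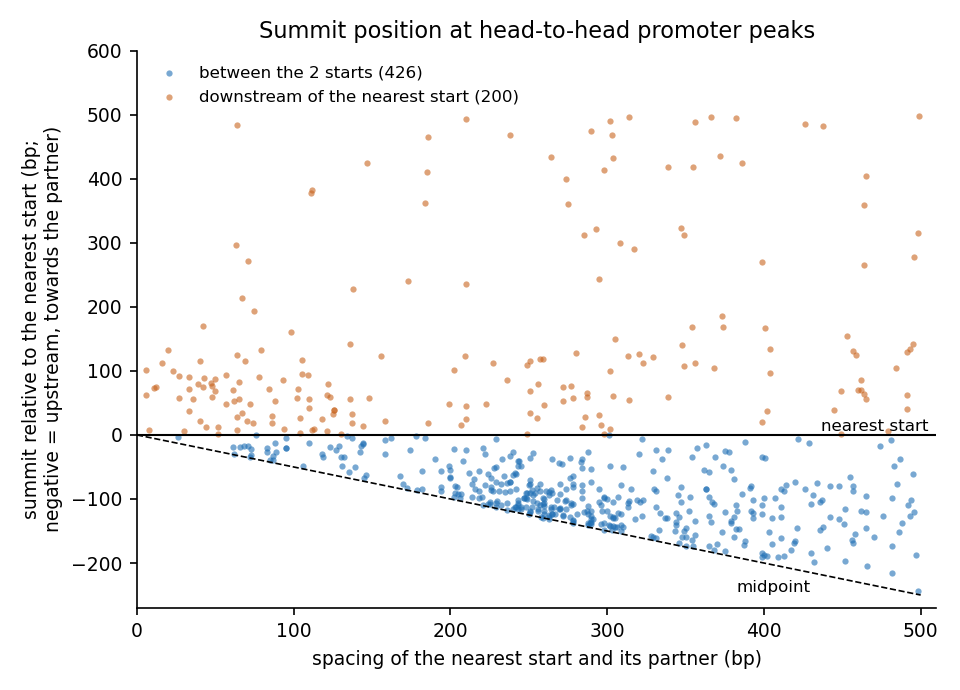
Position of each of the 626 summits relative to its nearest start in bp (vertical, negative towards the partner gene) against the spacing of the 2 starts in bp (horizontal); the solid line is the nearest start and the dashed line the midpoint. The 426 summits between the starts lie above the dashed line by construction, and at wide spacing many lie away from the midpoint. Their median distance from the nearest start is 122 bp at a spacing of 301 to 400 bp and 126 bp at 401 to 500 bp.

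Peak signal, the value the authors deposited for each peak on a scale not given in the sources used here, was somewhat higher at head-to-head promoters. The median was 137.4 (95% interval 129 to 145) over members, 119.3 (116 to 123) over lone promoter peaks and 121.1 over the peaks elsewhere. The quartiles of the members were 95.5 and 225.1, and their range was 3.20 to 1744, so the classes overlapped almost entirely. In replicate 1 the medians were 48.9 (46.4 to 52.7) for members and 45.7 (44.4 to 47.0) for lone peaks, and in replicate 2 they were 92.4 (86.6 to 96.9) and 80.3 (77.3 to 82.3). The intervals were thus apart in replicate 2 and overlapped in replicate 1. Signal was higher in replicate 2 at 591 of the 608 members that had a replicate summit within 200 bp in both replicates (97.2%). Over the whole list the same held for 7038 of 7322 peaks (96.1%), so this was not particular to members. Members made up 6 of the 25, 19 of the 100 and 117 of the 1000 strongest peaks of the list.

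Members were found again in each replicate's own list a little more often than lone peaks. Over the whole conservative list, 55.1% of peaks overlapped a peak of replicate 1's own list and 77.5% one of replicate 2's. Of the members, 365 (58.3%) overlapped replicate 1's list against 52.9% of the lone peaks, a difference of 5.40 points (0.99 to 9.72; Fisher's exact test, two-sided, Benjamini-Hochberg adjusted p = 0.0273 over the 2 replicates). For replicate 2 the shares were 81.9% and 77.8% (difference 4.15 points, 0.54 to 7.47; adjusted p = 0.0273 by the same exact test). Among peaks with a global irreproducible discovery rate of 0.001 or below neither difference passed the test. Both lists lacked 87 members (13.9%), against 18.1% of lone peaks and 18.0% of all peaks.

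The strongest head-to-head peak lay on 3L at 5139329 to 5139671 between Tcs5, which encodes the kinase subunit of the complex that makes the t6A modification of transfer RNA, and CHMP2B, a subunit of the ESCRT-III membrane-scission machinery. Its signal was 1744, with 633 in replicate 1 and 1156 in replicate 2, and the summit lay 108 bp from the Tcs5 start and 116 bp from the CHMP2B start. The next was at CenG1A, a GTPase-activating protein for Arf, and mRpS23, a subunit of the mitochondrial ribosome, and reached 1664 (504 in replicate 1, 1141 in replicate 2). Its starts were 492 bp apart and the summit lay 110 bp from CenG1A.

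Both summits sat in the stretch between the genes, and the following ones took both positions. CG7601 and CIA30, an assembly factor of respiratory complex I, had a signal of 1555 (459 and 1109) with the summit 97 bp from CG7601. Chro, a chromodomain protein of the interbands of polytene chromosomes, and Ssl1, a subunit of the general transcription factor TFIIH, had 1472 (542 and 927). That summit was 95 bp downstream of the Chro start, inside the transcribed side, with the starts 105 bp apart. mRpS10, a further mitochondrial ribosomal protein, and the arginine methyltransferase gene Art3 had 1436 (435 and 1022).

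Among the rest of the 20 strongest, CG8320 and the peroxisome gene Pex11ab had a signal of 1381 (452 and 934). Their starts were 33 bp apart, and the summit lay 91 bp downstream of CG8320. mRpL23 and CG9004 had 1293 (400 and 889), and the starts were 50 bp apart with the summit 69 bp downstream of mRpL23. Elp5, a subunit of the Elongator complex, and CG1275 had 1152 (399 and 782), again with tightly spaced starts, 33 bp apart, and a downstream summit at 71 bp. fws, a subunit of the COG tethering complex of the Golgi, and Lamtor3, of the Ragulator complex at the lysosome, had 1102 (457 and 651). Arl1, a GTPase of the Golgi, and brm, the ATPase of the SWI/SNF chromatin remodeller, had 925 (336 and 597), with the summit 112 bp from Arl1.

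Of these 20 peaks, 13 had the summit between the starts and 7 downstream of the nearest start. In 6 of the 7 the starts were at most 105 bp apart, and the exception was tank and CG12194, 348 bp apart with the summit 140 bp inside tank. All 20 were in both replicates' own lists, and the signal in replicate 2 was 1.43 to 2.42 times that in replicate 1. Other pairs among them were CG13390 and CG17294, CG3437 and CG3552, Mnat9 and CG1792, CG11309 and CG7632, CG8360 and CG8372, CG9147 and Fbw5, Pdrg1 and Pal1, and Pyroxd1 and CG10747, with signals between 791 and 1305. No DRE lay within 50 bp of any of the 20 summits, and the GC content of these 101 bp windows ranged from 14.9% to 39.6%.

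**Figure D3:**
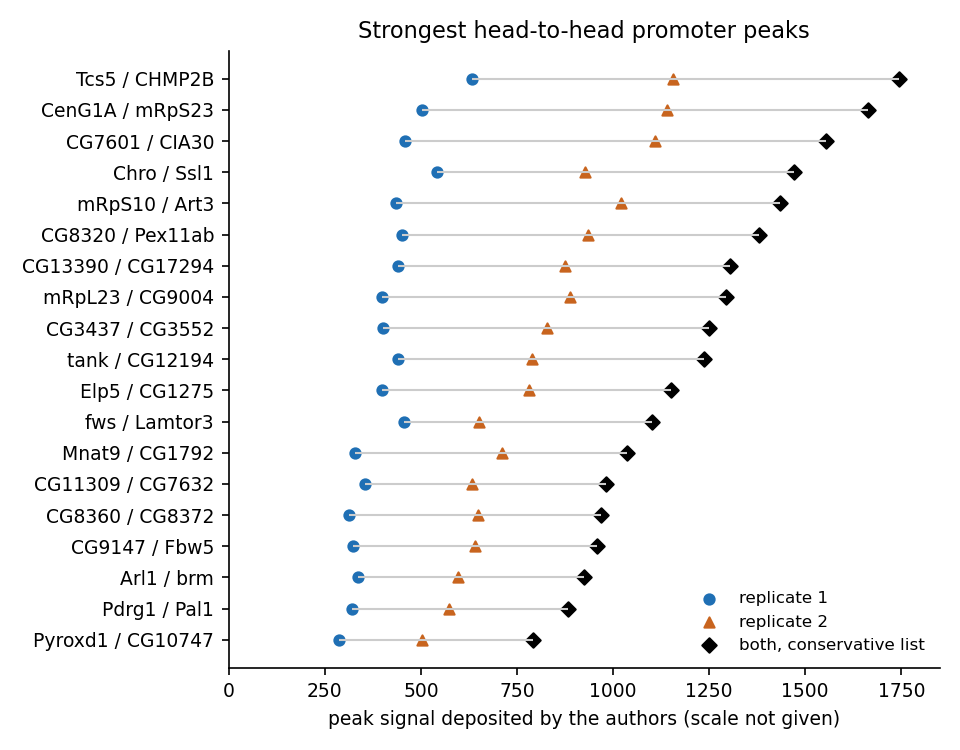
Peak signal deposited by the authors for 19 of the 20 strongest head-to-head peaks (horizontal, linear, scale not given), each named by its nearest gene and the partner, in replicate 1 (circles), replicate 2 (triangles) and the conservative list of both (diamonds). The lowest diamond is at 791 and the highest at 1744, and replicate 2 is above replicate 1 at every peak shown.

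The pair with 3 member summits was Dp1, which encodes an RNA-binding KH-domain protein, and imd, an adaptor of the innate immune response. The signals were 75.6, 32.0 and 168. The first 2 of these summits lay about 200 bp apart and took their replicate values, 37.4 and 47.1, from the same replicate summits, so they are not independent. The third, 197 bp upstream of imd, had 42.2 and 126 in replicates 1 and 2. Of the pairs with 2 summits, tty and fliI (an actin-binding gelsolin-family protein) had 417 and 236, one summit inside each gene 56 bp and 83 bp downstream of its start. Uba2, an E1 subunit for SUMO, and Cds, a phospholipid-synthesis enzyme, had 355 and 14.0, and the weaker one had no replicate summit within 200 bp. Over all members, 14 had a list signal below that of both replicates, so the lowest list signals cannot be read as weak binding in either replicate.

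Near the limits of the rule the values were ordinary. Sec13 and ATPsynCF6 stood just inside both limits with a spacing of 499 bp and a summit 498 bp from the Sec13 start (signal 188). Pax and Alp12, 498 bp apart, had 588, and Mdh2 and CG7168, with a summit at 496 bp, had 83.5. Just outside were mth and Ptpmeg, 502 bp apart, with summits of 113 and 30.9. RhoGDI and CG8004 had a summit at 503 bp with 119, and SREBP and Gyc76C had one at 518 bp with 209.

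Of the 1304 head-to-head genes with a summit, 23 encoded mitochondrial and 19 cytoplasmic ribosomal proteins. Among all 3815 head-to-head genes these groups had 54 and 34. The groups here and below were chosen by name with earlier results of these data known, so their counts are descriptions beside 34.2% of all head-to-head genes and 16.7% of all lone genes with a summit. Of 75 mitochondrial ribosomal protein genes, 54 were head-to-head and 23 of these (42.6%) had a summit, against 2 of the 21 lone ones. Besides mRpS23, mRpS10 and mRpL23, the next in signal were mRpL20 (641), mRpL24 (589) and mRpS2 (571). Of the cytoplasmic ribosomal protein genes, 19 of 34 head-to-head genes (55.9%) and 21 of 52 lone genes (40.4%) had one. The strongest of the 19 was RpL34b at 449 (129 in replicate 1, 322 in replicate 2), followed by RpL32 at 300.1 and RpL41 at 256. RpS19b is not among them, because the only member peak of its pair (529) lay 495 bp inside the partner CG5854 and 877 bp from the RpS19b start. RpL13 shared its peak of 94.6 (26.1 and 66.7) with Dref, the gene of the DRE-binding factor.

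Among respiratory chain and ATP synthase genes the share of head-to-head genes with a summit was near that of all head-to-head genes. Among proteasome and mitochondrial import genes it was lower. Of the respiratory chain and ATP synthase genes, 12 of 38 head-to-head genes (31.6%) and 3 of 49 lone genes (6.12%) had a summit. The highest signals were 329 at ND-MWFE, a complex I subunit paired with the peptidase gene TppII, 226 at levy, a cytochrome oxidase subunit, and 199 at ND-51, of complex I. Proteasome genes had 6 of 24 head-to-head genes (25%), led by Rpn3, of the regulatory particle, at 276 (104 and 182). None of 6 head-to-head genes of mitochondrial import had a summit.

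Genes of transcription and translation had shares near that of all head-to-head genes as well. Of Mediator and general transcription factor genes 10 of 31 head-to-head genes (32.3%) had a summit, with MED27 at 332 (118 and 220), MED30 at 301 and the TFIID subunit gene Taf5 at 261. Of RNA polymerase subunit genes it was 7 of 19 (36.8%), with Polr2B, the second largest subunit of polymerase II, at 317 (113 and 207). Polr3E followed at 289 and Polr2H at 264. Aminoacyl-tRNA synthetase genes, which charge transfer RNAs, had 7 of 21 (33.3%), led by GluProRS at 339, SerRS at 331 and IleRS at 317. Translation factors had 7 of 23 (30.4%), with eIF3h at 204. In 9 of 22 head-to-head genes of RNA modification (40.9%) there was a summit. After Tcs5 and Elp5 the next was Trmt6, of the methyltransferase that makes m1A in transfer RNA, at 723 (240 and 500.1). The shares of lone genes with a summit in these 5 groups ran from 1 of 12 synthetase genes (8.33%) to 9 of 35 translation factors (25.7%).

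Other cell functions differed more among themselves. Of 12 head-to-head autophagy genes 9 (75%) had a summit, against 3 of 8 lone ones. Atg7, the E1-like enzyme of the pathway, shared a peak of 387 (134 and 261) with the exocyst gene Sec6. Atg2, a lipid-transfer protein, had 344 (116 and 226), and Atg18a had 300.2. Nuclear pore genes had 6 of 17 (35.3%), led by Sec13, which also serves in COPII vesicle coats, at 188 and Nup160 at 162. The RNA exosome and ribosome biogenesis group likewise had 6 of 17, led by l(3)72Dn at 298. Membrane traffic genes of the Sec, Vps, Cog and TRAPP sets had 13 of 35 (37.1%), led by Vps33B at 420 (160 and 240). Splicing genes had 3 of 23 (13.0%), with U2af50 at 343, and DNA replication genes 1 of 15 (6.67%), dup at 76.0.

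Genes of the cuticle, chemosensory and ecdysone groups were seldom head-to-head, against 27.4% of all protein-coding genes. Of 121 cuticle protein genes 3 had a divergent partner, and none of the 3 had a summit. Of 231 chemosensory receptor and odorant-binding protein genes 23 had a partner, and 1 of these, Ir60e, had a summit (82.9). Of 26 genes of the ecdysone cascade and nuclear receptors 2 were head-to-head, and both had a summit. The member peak of Hr96, a nuclear receptor for xenobiotics and lipids, had 341 (79.6 and 251). That of tai, a coactivator of the ecdysone receptor, had 184 (50.7 and 129). These are not always the highest summits, because with the highest within 500 bp of any start the median of the 2 genes was 344. Of the 24 lone genes in that group 15 had a summit, so its peaks lay mostly outside divergent promoters.

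Some pairs with a peak had both genes in these groups, with Sec5 and Cog3 in the same one. Besides Atg7 with Sec6, these were Sec13 with ATPsynCF6, a coupling factor of ATP synthase (101, a summit other than the one of 188 inside Sec13), Nup160 with the exosome gene Csl4 (162), Nup37 with RpS27 (153) and Sec5 with Cog3 (141). Prosbeta2, of the proteasome core, shared a peak of 136 with mRpL39. Elp4 with Vps52 (129), RpL34a with Trmt61 (117) and Sec3 with COX7B (104) completed the list. At Elp4 with Vps52 replicate 1 had the higher signal, 77.7 against 55.9 in replicate 2, the reverse of most members.

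Head-to-head summits were richer in A and T than lone ones. In the 101 bp around the summit the mean GC content was 33.6% (SD 11.1 over 626 peaks) for members, 40.9% (SD 11.9) for lone promoter peaks and 37.0% (SD 11.2) elsewhere. Summits between the starts had 30.7% and downstream ones 39.9%. Among lone peaks the upstream summits had 38.9% and the downstream ones 45.3%, so members were lower on either side. GC content also fell with signal, from 39.5% in the lowest 20% of the members by signal to 26.7% in the highest. Lone peaks had a similar fall, from 44.7% in their lowest 20% to 32.8% in their highest. Runs of at least 8 A or T bases, like those in capitals in the Tcs5, CHMP2B sequence above, were in 77.8% (74.4 to 80.9) of member windows. The share was 57.3% in lone windows, 68.3% in windows of peaks elsewhere and 61.3% in windows of the same length centred 100 bp upstream of all protein-coding starts. Among members it was 85.9% at summits between the starts and 60.5% at downstream ones. Among lone peaks it was 63.4% upstream and 44.0% downstream. That measure was chosen after the sequences were seen and was not tested.

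**Figure D4:**
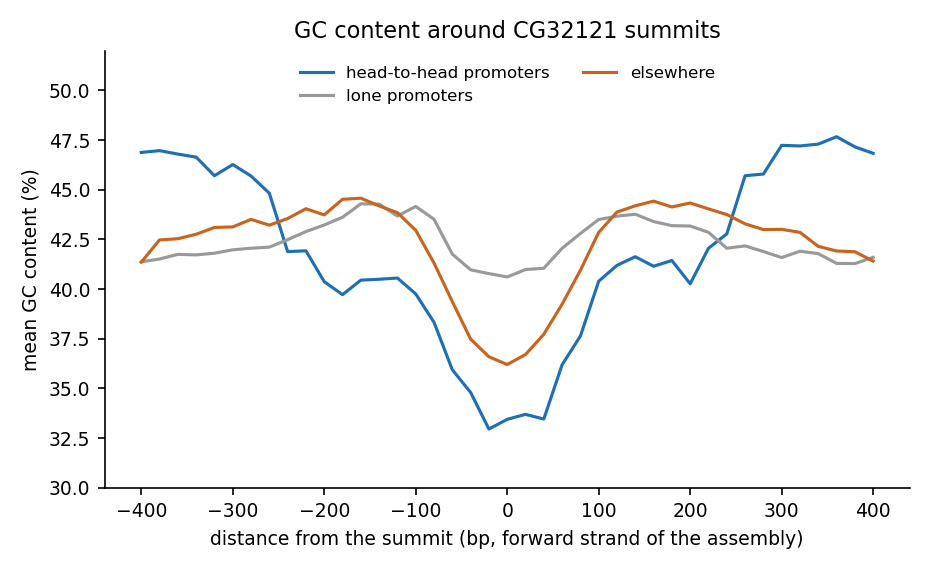
Mean GC content in percent (vertical) in 21 bp windows against the distance from the summit in bp along the forward strand (horizontal) for head-to-head, lone promoter and other peaks. The head-to-head curve has the lowest point, 33.0% at 20 bp left of the summit, and rises to 46.9% at 400 bp left of it.

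Short sequence motifs differed between the classes along with GC content. Of the 16 motifs searched on both strands within 50 bp of the summit, 9 (56.2%) differed between members and lone peaks (Fisher's exact test, two-sided, Benjamini-Hochberg adjusted over the 16). AAAATA was in 43.9% of members and 28.3% of lone peaks (difference 15.6 points, 11.3 to 19.9; exact test, adjusted p = 5.84e-12) and in 29.0% of the windows 100 bp upstream of all starts. TATAAA, the TATA box sequence matched at any position, was in 24.4% and 14.6% (exact test, adjusted p = 1.75e-07; 16.3% upstream of all starts). Its matches within 250 bp of the member summits lay at a median of 101 bp from the nearer start. AAAATA was taken up because it led the summits in an earlier look at these data, so its call is no independent evidence.

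The DRE, TATCGATA, was in 25 members (3.99%) and in 20 lone peaks (0.881%), an adjusted p of 2.27e-06 by the exact test, and in 2.28% of the windows upstream of all starts. Its core CGATA, counted on its own and overlapping the DRE, was in 20% and 13.5% (exact test, adjusted p = 3.31e-04), close to the 19.5% upstream of all starts. Motif 7 (CATCNCTA) was in 4.15% and 1.5%, and the core of motif 6 (GTATTTT) in 8.47% and 4.45%, each with an adjusted p of 3.98e-04. Upstream of all starts they were in 1.20% and 6.11%. The motif 1 core was in 1.44% and 0.837% (exact test, adjusted p = 0.211, difference -0.22 to 1.91 points), a difference that the number of peaks could not resolve. Replicate 1's own list alone did not give 3 of these calls, by the same exact test. There the DRE was in 1.57% and 0.784% (exact test, adjusted p = 0.309), CGATA in 14.9% and 12.3% (0.307) and motif 7 in 2.88% and 1.18% (0.0998). The calls of the DRE and motif 7 were also lost at a global irreproducible discovery rate of 0.001 (0.0678 and 0.0934, exact test), and those of all 3 within 25 bp of the summit.

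Motifs that were rarer at head-to-head summits were the GAGA element GAGAGAG, in 1.12% of members and 5.42% of lone peaks (exact test, adjusted p = 1.62e-06; 4.46% upstream of all starts), the CA repeat CACACAC, in 2.72% and 5.46% (adjusted p = 0.0078; 3.70%), and the initiator TCAGTT, in 4.63% and 8.11% (adjusted p = 0.0049; 6.83%). For the E-box CAGCTG, the Pleiohomeotic core GCCAT, the Zelda site CAGGTA, the GATA site AGATAA, the nuclear receptor core AGGTCA and ACAGTG the differences did not pass the test. The initiator call was lost with either replicate's own list (adjusted p = 0.307 for replicate 1 and 0.0538 for replicate 2, exact test), and that of the CA repeat with replicate 1's list (0.188). At the stricter discovery rate both were lost too (0.415 and 0.0934), and the CA repeat call was also lost with either limit at 1000 bp (0.105 and 0.0628) and with 1 canonical start per gene (0.0678). For the motifs not called, the adjusted p ran from 0.0581 for AGGTCA to 0.843.

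**Figure D5:**
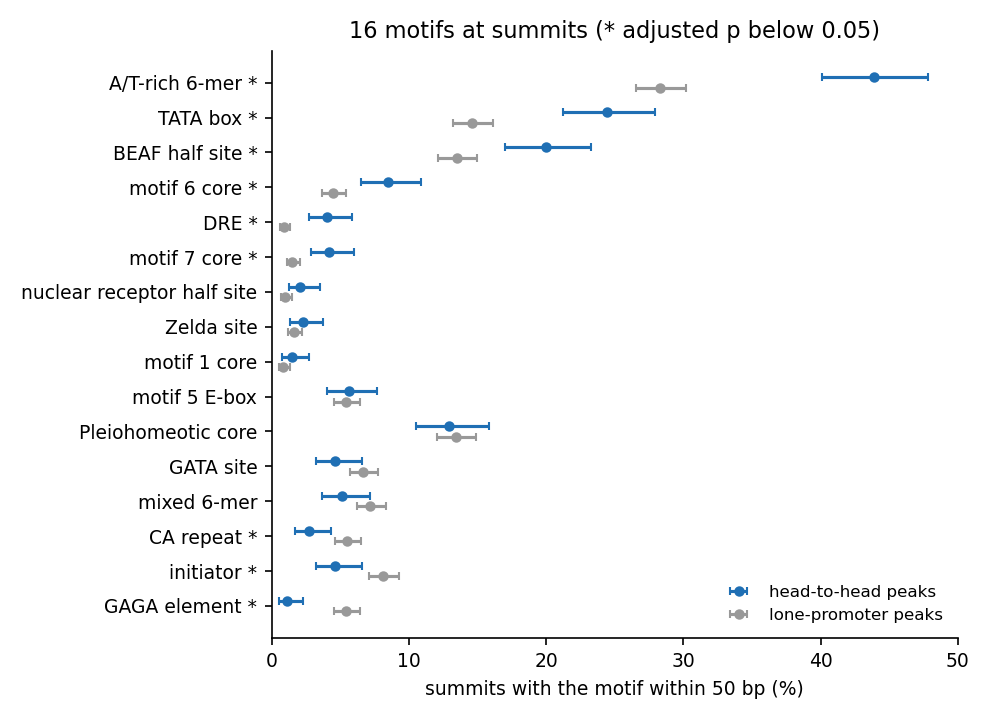
Percent of summits with each motif within 50 bp on either strand (horizontal) for 626 head-to-head peaks (blue) and 2270 lone promoter peaks (grey), bars being Wilson 95% intervals; the A/T-rich 6-mer is AAAATA and the mixed 6-mer ACAGTG. The largest gap is that of AAAATA, 43.9% against 28.3%, and the GAGA element is the lowest of all at head-to-head peaks, 1.12%.

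Part of these differences was tested at matched GC content, a comparison added after the data were seen. Among windows of 30 to 40% GC, 168 of members and 574 of lone peaks, 3 of the 9 motifs passed the test. They were the DRE, in 5.36% and 1.22% (adjusted p = 0.0177), CGATA, in 26.2% and 14.8% (0.0176), and motif 7, in 6.55% and 1.74% (0.0177), all by Fisher's exact test. AAAATA was in 41.7% and 35.4% (exact test, adjusted p = 0.467), and TATAAA in 17.3% and 17.1%. The GAGA element was in none of the 168 member windows, which allows a share of up to 1.79%, and in 2.44% of the lone ones (exact test, adjusted p = 0.193).

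Over all possible 6-mers, each counted with its reverse complement, 246 (11.8%) differed between members and lone peaks (same exact test, adjusted over all of them). Of these, 109 were more frequent in members and 137 less frequent. The difference followed base composition. Of the 109, 94 had at most 1 G or C base and 35 of the 36 6-mers with none were among them, while none of the 137 had so few. ATTTAA led with 35.6% of members and 18.0% of lone peaks, then AAATTA with 34.0% and 17.4%, and ATTTTA with 34.7% and 18.2%. Those less frequent were led by AGAGAG, with 3.04% and 10.6%, and AGAGCG, with 2.24% and 9.07%. Among windows of 30 to 40% GC no 6-mer passed Fisher's exact test after adjustment, and 94 had an unadjusted p under 0.05.

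The DRE, motif 7 and the motif 1 core lay near the starts. Most of the 16 motifs had a smaller median distance to the nearer start than to the summit. AAAATA was among them, with 84 bp and 99 bp, and only TATAAA, the CA repeat and AGGTCA were not. Distances to the summit were capped at 250 bp, so this order alone sets no motif apart. Within 250 bp of the member summits there were 146 DREs, at a median of 122 bp from the summit and 27 bp from the nearer start. Motif 7 lay at a median of 109 bp from the summit and 20 bp from the nearer start, and the motif 1 core at 144.5 bp and 16.5 bp. The same can be seen at fws with Lamtor3 and Atat with Shc above. AAAATA was densest within 50 bp of the summit, with 0.63 matches per 100 bp and peak against 0.35 at 151 to 250 bp, and TATAAA likewise with 0.34 against 0.17. Because AAAATA was taken up for leading these summits, its density there is no independent evidence. Of the other motifs, only the motif 6 core (0.095 against 0.046) and the rare GAGA element (0.014 against 0.006) were densest there too.

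Bound and unbound head-to-head pairs were also compared with each other, which holds the divergent arrangement fixed. In the 251 bp around the midpoint between the closest starts, 6 of the 16 motifs (37.5%) differed between the 576 pairs with a member peak and the 1331 pairs with no summit in reach (Fisher's exact test, two-sided, adjusted over 16). AAAATA was in 74.7% and 64.2% (exact test, adjusted p = 1.22e-04; 52.1% of windows of the same length upstream of all starts), motif 7 in 11.6% and 6.84% (0.0061; 4.98%) and ACAGTG in 17.7% and 12% (0.0074; 12.1%). AAAATA and ACAGTG had been picked from these data. Within 75 bp of the midpoint motif 7 was in 4.86% and 5.11% (exact test, adjusted p = 0.97), a change of sign, and ACAGTG in 7.99% and 7.51% (0.872), so neither call held in the narrower window. Less frequent in the bound pairs were the motif 1 core, in 6.08% and 10.3% (exact test, adjusted p = 0.0095; 5.68%), the initiator, in 13.4% and 19.0% (0.0095; 23.8%), and the GAGA element, in 1.22% and 3.31% (0.0218; 6.97%). Midpoint windows of 30 to 40% GC, 314 of bound and 635 of unbound pairs, were compared after the data were seen. There the calls of the initiator (10.8% and 15.7%, exact test, adjusted p = 0.151) and the GAGA element (0.96% and 1.26%) were lost. The other 4 motifs passed the test.

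The DRE did not separate bound from unbound pairs, with 13.7% and 14.5% (difference -4.04 to 2.75 points; adjusted p = 0.714 by the exact test), while 7.47% of windows upstream of all starts held it. The mean GC content of the midpoint windows was 33.9% (SD 7.04) in bound and 35.4% (SD 7.35) in unbound pairs, a smaller gap than that between the summits of members and lone peaks. Spacing also differed, with medians of 258.5 bp (249 to 269) in bound and 232 bp (225 to 243) in unbound pairs. Among pairs more than 200 bp apart, a comparison added after the data were seen, only motif 7 (10.6% and 3.88%, exact test, adjusted p = 2.50e-04) and ACAGTG (18.4% and 11.1%, 0.0064) passed the test, and AAAATA, with 75.6% and 71.2%, did not (0.25). The shorter gene of bound pairs had a median length of 1588 bp (1499 to 1701) and that of unbound pairs 1462 bp (1386 to 1508).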

How the data were processed

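ChIP-seq of CG32121-eGFP was analysed from the authors' deposited peak lists in the dm6 assembly: a conservative thresholded list and another made from both libraries, and a thresholded and a ranked list for each of the 2 replicates. The signal of a peak was taken as the authors deposited it, with no scale stated. The deposited −log10 global irreproducible discovery rate came from a ranked list of both libraries, was at least 2 for peaks of the conservative list and was used for an alternative at 0.001. The aligner, the peak caller and the read numbers are not stated, so depth is unknown. Per the labels, chromatin was sonicated.

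Summits (interval start plus offset) were matched to protein-coding starts of Ensembl release 115; 99.8% of annotated start codons read ATG in the RefSeq genome used. For a replicate's signal the closest summit of its ranked list was used, up to 200 bp away. Overlap meant at least 1 bp. Shares have Wilson, differences Newcombe and medians order-statistic 95% intervals. Fisher's exact tests compared peak classes, not samples, so their p-values do not measure the spread between replicates. Python 3.11.15, numpy 2.4.6, scipy 1.17.1 and pandas 2.3.3 were used, tested on simulated data.

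Members, gene groups and motifs were chosen with earlier results of these data known. Genes named were the pairs of the 20 strongest members, the 3 pairs with most summits, up to 3 genes per group and those at the limits. RpL13 with Dref and the pairs with both genes in these groups were named after their values were seen. The result of 1 of the 20 pairs is not reported here. Alternatives changed the peak list, the windows, the start set and the motif window.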

Additional observations from a re-analysis of the deposited data

How the results depend on the processing

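No paired analysis was possible because there was 1 group. With either replicate's own list the number of peaks was 382 to 612, the difference in bound share 11.8 to 17.6 points, the share between the starts 66.5% to 70.2%, the median signal 68.3 to 92.1, the motifs called 4 to 10, the 6-mers called 133 to 242 and the motifs called between pairs 7 to 9; the lower values came from replicate 1's shorter list, except for the share between the starts and the motifs between pairs. At a global irreproducible discovery rate of 0.001 these were 374 peaks, 12.1 points, 73.5%, a signal of 200.0, 5 motifs and 116 6-mers, and the recovery differences fell to 2.05 points for replicate 1 (adjusted p = 0.693, Fisher's exact test) and 0.017 points for replicate 2 (adjusted p = 1). The other thresholded list moved the median signal to 128.1. Summit limits of 250 and 1000 bp gave 72.9% and 58.8% between the starts, and 250 bp gave 15.6 points. Partner limits of 250 and 1000 bp gave 246 peaks, 11.4 points and 56.1% between, and 15.7 points and a signal of 127.2. Motif windows of 25 bp to each side left 4 motifs and 82 6-mers, and 100 bp gave 493 6-mers. At 30 to 40% GC 3 motifs and 0 6-mers were called at summits (94 at an unadjusted p under 0.05), and the CA repeat changed sign (0.26 points). Between pairs 4 motifs were called at that GC content. For pairs over 200 bp apart 2 motifs were called, and with 75 bp to each side of the midpoint motif 7 changed sign (-0.25 points). Of the single-motif values at summits, 93 kept their call under the alternatives and 23 lost it. Those kept include the alternative limited to starts of protein-coding transcripts, which left every value unchanged and so could not lose a call. Between pairs 34 kept it and 7 lost it. The cause of these changes was not tested.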
